A study of Mus musculus with 4 samples.

Results

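The mitosis and spindle genes are 53 mouse genes for the machinery that enters, runs and leaves mitosis. They were taken by name and matched to count rows by Ensembl gene ID, and all 53 were found among the 52550 IDs in the count files (Sgol1 under its GENCODE symbol Sgo1). By role they comprised 8 cyclins, CDK1 and its activators, 4 mitotic kinases, 4 spindle checkpoint genes, 5 genes of anaphase and chromatid separation and 3 chromosomal passenger partners. The rest were 7 centromere and kinetochore genes, 8 kinesin motors, 4 genes of spindle assembly and the chromosome coat, 4 cytokinesis genes and 6 genes of condensin and topoisomerase. Their RNA was counted in macrophages grown from the bone marrow of C57BL/6 mice aged 8 to 10 weeks. Wild-type cells and cells deficient in the microRNA miR-7 were each left without stimulus or given LPS, a lipid of the bacterial outer membrane that macrophages sense through Toll-like receptor 4, at 100 ng/mL for 12 hours. There was 1 library in each of the 4 groups. The labels do not say more of the model: how miR-7 was removed, whether from all cells or some, how many mice gave cells to each library and of which sex they were is not stated.

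Mitosis parts the copied chromosomes into daughter cells. Cyclin B with CDK1 starts it, Aurora and Polo kinases build the spindle, kinesins move microtubules and chromosomes, the checkpoint holds anaphase until kinetochores are attached, and the anaphase-promoting complex then lets separase cut the cohesin between sister chromatids. Most of these genes are transcribed in G2 and M phase under MuvB, B-MYB and FOXM1, through a promoter element called CHR, and are kept silent by the DREAM complex in cells at rest. Macrophages in marrow culture divide in response to macrophage colony-stimulating factor, and activation by LPS is known to halt their division.

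Counts per library summed to between 33937823 and 42074624. All 8 macrophage markers listed had a CPM (counts scaled to library size) of at least 1 in every library, and their summed level was 12511 to 22874 CPM, of which lysozyme Lyz2 held 8664 to 18594 CPM. Lists for neutrophils, T cells, NK cells and erythroid cells summed to at most 10.6 CPM in any library. The B cell list summed to 6.71 and 0.121 CPM in the wild-type unstimulated and LPS libraries and to 10.1 and 0.454 CPM in the deficient ones, and the dendritic cell list to 24.4, 12.8, 33.2 and 12.5 CPM in the same order. Mast cell or basophil markers summed to 3.36 to 11.2 CPM and megakaryocyte markers to 16.6 to 22.2 CPM. Of 6 stem or progenitor markers, 2 had 1 CPM or more in every library, and their sum was 14.2 and 12.2 CPM in the wild-type unstimulated and LPS libraries and 19.5 and 5.79 CPM in the deficient ones. The endothelial list summed to 321 to 453 CPM, nearly all Vwf and Kdr. The fibroblast list summed to 2.61, 17.1, 2.14 and 20.03 CPM in the same order, mostly Pdgfrb in the LPS libraries. The part of such cells in the results was not tested. Small counts piled up at multiples of 4 in every library: among genes with 4 to 43 counts, 38.1% to 40.5% had such a count. Intervals from counting error may therefore be too narrow, so genotype differences, differences of LPS effects and ratios against 0 counts are also given with counts divided by 4.

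The CHR element was searched because it is the promoter element best known for this gene class. RefSeq promoter windows of GRCm38.p6, from 250 bases before to 50 bases after a transcript start, were at hand for 44 of the 53 genes. The letters TTTGAA or TTCGAA on either strand stood in 35 of the 44 (79.5%), against 21.7% of all 27025 genes with a window. A CHR match began within 50 bases of the start in 32 of the 44 (72.7%), against 6.12% of all genes. The letters CCAAT, the box that binds NF-Y, were found on either strand in 32 of the 44 (72.7%) and in 41.1% of all genes. E2F letters (TTTGGCGC, TTTCCCGC, TTTCGCGC or TTTGCCGC, which cannot overlap the CHR letters; CCAAT can share 1 base with either) were found in 4 (9.09%) and in 2.61%. The 6 windows that follow run from 200 bases before to 50 bases after the start and were chosen to show 2 genes that fell with LPS, 3 that rose and 1 that did not pass the test; capitals mark CHR and CCAAT letters on either strand. On GRCm38.p6 they are chr9:70421505-70421754 (minus strand) for Ccnb2, chr4:118437294-118437543 (minus strand) for Cdc20, chr7:135716330-135716579 (minus strand) for Mki67, chr11:43425932-43426181 (minus strand) for Pttg1, chr3:40799751-40800000 (plus strand) for Plk4 and chr2:127831810-127832059 (minus strand) for Bub1.
Ccnb2: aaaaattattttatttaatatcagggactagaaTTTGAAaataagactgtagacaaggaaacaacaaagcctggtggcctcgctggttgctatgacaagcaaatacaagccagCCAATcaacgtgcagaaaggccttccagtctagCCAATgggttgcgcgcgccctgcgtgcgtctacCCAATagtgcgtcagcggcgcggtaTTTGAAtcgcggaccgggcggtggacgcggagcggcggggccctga
Cdc20: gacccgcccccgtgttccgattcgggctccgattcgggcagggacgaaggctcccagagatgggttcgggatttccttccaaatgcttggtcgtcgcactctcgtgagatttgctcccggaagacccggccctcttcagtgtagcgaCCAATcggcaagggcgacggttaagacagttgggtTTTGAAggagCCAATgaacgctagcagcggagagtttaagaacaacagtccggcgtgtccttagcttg
Mki67: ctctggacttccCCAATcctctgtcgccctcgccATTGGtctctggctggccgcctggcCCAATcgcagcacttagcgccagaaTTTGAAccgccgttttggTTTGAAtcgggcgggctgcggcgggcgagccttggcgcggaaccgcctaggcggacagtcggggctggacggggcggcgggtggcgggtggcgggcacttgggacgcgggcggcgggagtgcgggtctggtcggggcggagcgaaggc
Pttg1: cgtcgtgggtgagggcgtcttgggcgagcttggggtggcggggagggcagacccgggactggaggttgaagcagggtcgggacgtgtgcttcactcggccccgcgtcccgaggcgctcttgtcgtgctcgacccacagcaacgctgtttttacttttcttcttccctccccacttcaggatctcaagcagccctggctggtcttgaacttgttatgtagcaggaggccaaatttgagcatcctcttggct
Plk4: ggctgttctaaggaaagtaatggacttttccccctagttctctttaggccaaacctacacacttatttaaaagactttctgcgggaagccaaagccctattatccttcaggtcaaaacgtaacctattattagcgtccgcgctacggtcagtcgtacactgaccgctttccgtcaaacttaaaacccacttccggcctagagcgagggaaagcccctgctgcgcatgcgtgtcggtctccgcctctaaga
Bub1: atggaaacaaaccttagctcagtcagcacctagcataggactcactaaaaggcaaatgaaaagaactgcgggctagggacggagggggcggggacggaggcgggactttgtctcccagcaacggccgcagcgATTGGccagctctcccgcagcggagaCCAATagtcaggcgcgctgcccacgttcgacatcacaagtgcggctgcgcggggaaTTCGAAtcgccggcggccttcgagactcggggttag
In Ccnb2 and Bub1 a CHR match began 5 and 15 bases into the transcript, and in Cdc20 it began 18 bases before it. Mki67 had its CHR matches 116 and 98 bases before the start, and Pttg1 and Plk4 had none of the letters in capitals. The Pttg1 window does not reach the gene's 5' end in GENCODE M21 (chr11:43426251), so letters upstream of that start were not searched. A match is a run of letters, not a measured binding site.

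**Figure D1:**
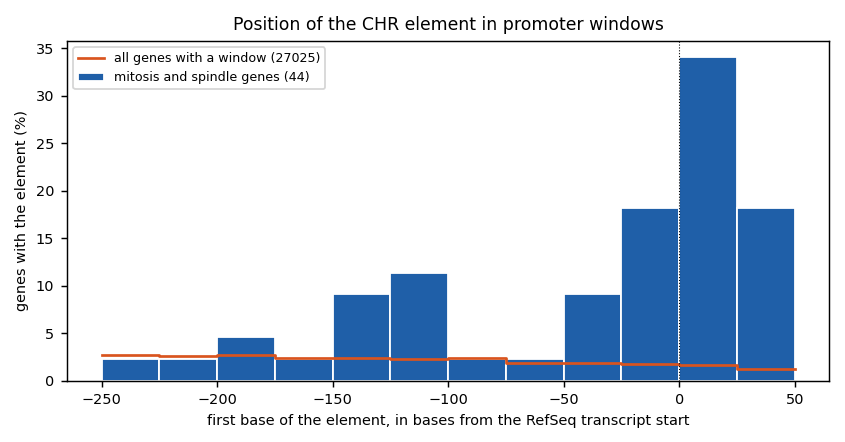
Share of genes (%) with a CHR match beginning in each 25-base bin, by distance in bases from the RefSeq transcript start, for the 44 mitosis and spindle genes with a window (bars) and for all 27025 genes (line). The bars are tallest from the start to 25 bases after it, where 34.1% of the 44 genes and 1.68% of all genes had a match.

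The first question was how the mitotic genes stood in macrophages given LPS. All 53 were detected without LPS, at 1 CPM or more in both unstimulated libraries, while 31 reached that level in the wild-type and 29 in the deficient LPS library. Of the 53 tested, 43 fell with LPS and 4 rose (Mki67, Tpx2, Pttg1 and Plk4). The remaining 6 did not pass the test: Foxm1, Bub1, Mad2l1, Incenp, Smc4 and Ccnf. The test was edgeR's quasi-likelihood test in a model of genotype and LPS over the 4 libraries, with adjusted p under 0.05. That is 81.1% of the genes lower and 7.55% higher, where 16.3% of all 12730 tested genes fell and 18.0% rose. The median fitted LPS effect of the 53 was log2 -2.998, a 7.99-fold lower level, against log2 -0.04 over all tested genes. In bulk RNA, fewer dividing cells and less of these transcripts per cell cannot be told apart.

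The 2 LPS pairs, 1 in each genotype, stand in for replicates in that model, with 1 residual degree of freedom. In a model of LPS alone with 3 libraries, which leaves 1 library in a group, fewer genes were called lower or higher. The median LPS effect of the 53 was log2 -2.50 without the wild-type unstimulated library, against 0.01 over all tested genes. Without the deficient unstimulated one it was log2 -2.97, against 0.02. The calls of Mki67 and of 15 fallen genes held with any 1 library left out: Anln, Birc5, Ccna2, Cdc25b, Cdca8, Kif4, Kif11, Kif15, Kif20a, Kif22, Ncapg, Ncaph, Racgap1, Top2a and Ube2c. Of the 53, 17 entered the test through the unstimulated libraries alone, 12 had 1 CPM in 1 LPS library, and 24 had it in both. Among those 24, 4 rose, 15 fell and 5 did not pass, where of all 11570 tested genes at that level in both LPS libraries 19.8% rose and 13.9% fell. A member could enter through the group in which it was high, so these counts are a description of the list. Exonic bases are shared with another gene by 17 of the 53, and among the other 36, 28 fell and 4 rose.

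Counted pair by pair, most of the genes were lower with LPS in both genotypes. In the wild-type pair 43 genes were lower and 3 higher with LPS by a 95% counting interval wholly beyond 2-fold, against 13.3% and 14.8% of tested genes. In the deficient pair 40 were lower and 2 higher, against 11.8% and 12.5%. Of the 53, 38 were beyond 2-fold lower in both pairs, and Mki67 and Pttg1 were beyond 2-fold higher in both. The share of all tested genes in both pairs was not counted. By the deficient pair alone it is at most 11.8% lower and 12.5% higher. With counts divided by 4, Cdk1, Ndc80, Nusap1, Sgol1, Smc2 and Spc25 were no longer beyond 2-fold lower in both pairs. Mki67 and Pttg1 stayed beyond 2-fold higher in both. No share of all tested genes is given for the divided counts, which describe the list alone. The summed level of the 53 was 649 CPM without and 445 CPM with LPS in wild-type cells, and 579 and 412 CPM in deficient ones. Reads of Mki67, a long RNA, made up 10.1% of that sum in the wild-type unstimulated library and 39.6% with LPS, and 12.1% and 48.6% in the deficient libraries. Without Mki67 the sums were 584 and 269 CPM in wild-type cells and 509 and 212 CPM in deficient cells. Across the 48 genes with counts in every library, the LPS log2 ratios of the genotypes correlated with r 0.73 (Pearson) and rho 0.61 (Spearman), a description of genes that share the same 4 libraries.

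**Figure D2:**
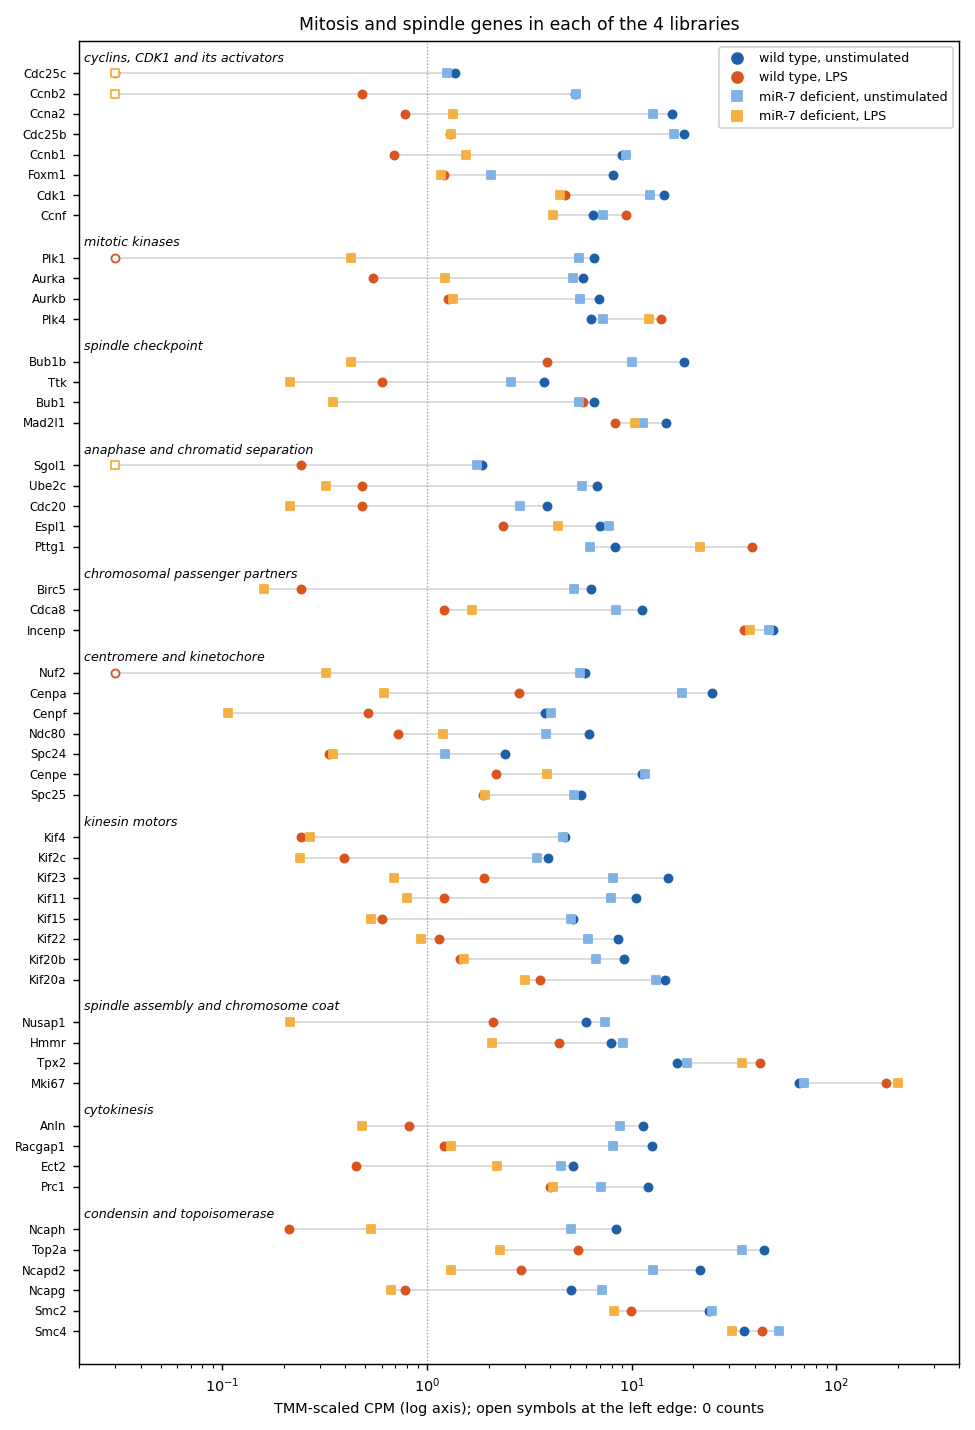
TMM-scaled CPM (log axis) of each of the 53 genes in the 4 libraries, 1 library per group, grouped by role, with the line joining the values of a gene, open symbols at the left edge for 0 counts (both LPS libraries for Cdc25c) and a dotted line at 1 CPM. In most rows both LPS libraries lie left of both unstimulated ones, while Mki67, Tpx2, Pttg1 and Plk4 lie the other way.

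Among the cyclins, CDK1 and its activators, 6 of 8 fell, with a summed level of 78.4 CPM in wild-type and 66.2 CPM in deficient cells without LPS and of 18.5 and 13.96 CPM with it. Cdk1, the kinase that drives entry into mitosis, stood at 14.3 and 4.70 CPM in the wild-type unstimulated and LPS libraries and at 12.3 and 4.46 CPM in the deficient ones. It fell by 1.53 ± 0.27 (SE) on the log2 scale (adjusted p 0.00717). The genotypes differed 1.17-fold without LPS and 1.06-fold with it, and no LPS value overlapped an unstimulated one. Ccnb1, a cyclin that activates CDK1 at mitosis, stood at 8.96 and 0.694 CPM in wild-type cells and at 9.35 and 1.55 CPM in deficient ones, and fell by 3.11 ± 0.43 (adjusted p 0.00289). Its close relative Ccnb2 stood at 5.30 and 0.483 CPM in wild-type cells and at 5.35 CPM and 0 counts in deficient cells. Ccnb2 fell (adjusted p 0.0152, but 0.0581 in a model of LPS alone). The fall was 10.98-fold in the wild-type pair and at least 66.8-fold in the deficient pair against a floor of 3 counts. Such a value is not the limit of the counting interval, which here was 53.9-fold, or 12.99-fold with counts divided by 4. Ccna2, the cyclin of S and G2 phase, had 15.8, 0.784, 12.7 and 1.33 CPM in the order wild-type unstimulated, wild-type LPS, deficient unstimulated and deficient LPS, the order of every series of 4 values from here on. It fell by 3.76 ± 0.40, and 12.5% of its exonic bases are shared with Exosc9 on the opposite strand.

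CDK1 is switched on by CDC25 phosphatases, and both of those listed fell. Cdc25b had 18.04, 1.30, 16.03 and 1.31 CPM and fell by 3.70 ± 0.30 (adjusted p 4.4e-04). Cdc25c had 64 and 49 counts without LPS and 0 counts in both LPS libraries, at least 15.1-fold and 15.6-fold lower against that floor, with interval limits of 11.95-fold and 12.2-fold, or 2.73-fold and 2.65-fold with counts divided by 4. Neither Foxm1 nor Ccnf passed, although Foxm1 passed as lower with total-count scaling (adjusted p 0.0344), with counts divided by 4 (0.0235) and without the deficient unstimulated library (0.0262). Foxm1, the transcription factor that activates late cell cycle genes, had 8.12, 1.21, 2.06 and 1.17 CPM (fitted log2 -1.80 ± 0.58, adjusted p 0.0579), with the wild-type unstimulated library far above the other 3. Ccnf, a cyclin-like ubiquitin ligase subunit, had 6.498, 9.38, 7.26 and 4.14 CPM, higher with LPS in wild-type and lower in deficient cells (fitted log2 -0.13 ± 0.41, adjusted p 0.823).

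Of the 4 mitotic kinases, 3 fell and 1 rose. Plk1, the Polo kinase of spindle assembly and cytokinesis, had 6.56 CPM, 0 counts, 5.53 and 0.427 CPM. It fell (adjusted p 0.0120), at least 72.5-fold against the floor in wild-type cells (interval limit 58.6-fold, or 14.4-fold with counts divided by 4) and 12.9-fold in deficient cells. Aurka, the spindle pole kinase, had 5.81, 0.543, 5.17 and 1.23 CPM and fell by 2.71 ± 0.50. Aurkb, the kinase of the chromosomal passenger complex, had 6.95, 1.27, 5.58 and 1.33 CPM and fell by 2.26 ± 0.39. For all 3, every LPS value was under every unstimulated one, a description for which no share of all tested genes is given. Plk4, which starts the copying of centrioles, moved the other way, with 6.35, 13.99, 7.29 and 12.2 CPM. Plk4 rose by 0.94 ± 0.26 on the log2 scale (adjusted p 0.0360), and did not pass with libraries scaled to total counts (adjusted p 0.153), without the low-count filter (0.0699) and without any 1 library (0.0596 to 0.147).

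Among the 4 spindle checkpoint genes, 2 fell and 2 did not pass. Bub1b, whose protein BUBR1 holds back the anaphase-promoting complex, had 18.04, 3.86, 10.02 and 0.427 CPM. It fell by 3.23 ± 0.58 (adjusted p 0.00791, but 0.1095 in a model of LPS alone). Ttk, the checkpoint kinase MPS1, had 3.74, 0.603, 2.57 and 0.214 CPM and fell by 3.05 ± 0.55. The kinase gene Bub1 had 6.58, 5.82, 5.53 and 0.347 CPM (fitted log2 -1.86 ± 0.92, adjusted p 0.172). Its wild-type pair differed 1.13-fold and its deficient pair 15.9-fold, so 1 library of 4 was low. Mad2l1, which encodes the checkpoint effector MAD2, had 14.7, 8.26, 11.3 and 10.4 CPM and did not pass either (log2 -0.48 ± 0.28, adjusted p 0.234).

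In the group of anaphase and chromatid separation, 4 of 5 genes fell and Pttg1 rose. Cdc20, the activator of the anaphase-promoting complex, had 3.85, 0.483, 2.85 and 0.214 CPM and fell by 3.33 ± 0.54. Ube2c, the ubiquitin-conjugating enzyme of that complex, had 6.78, 0.483, 5.71 and 0.320 CPM and fell by 3.97 ± 0.45. Of its exonic bases 22.8% are shared with Tnnc2 on the opposite strand, which had 0 counts in every library. Sgol1, shugoshin, which protects cohesin at centromeres, had 1.86, 0.241 and 1.76 CPM and 0 counts, so that it fell 7.71-fold in wild-type and at least 21.96-fold against the floor in deficient cells (adjusted p 0.0251). The interval limit of the latter was 17.4-fold, or 3.94-fold with counts divided by 4, and the call ended without the low-count filter (adjusted p 0.0662) and in a model of LPS alone (0.0673). Espl1, the protease separase, kept more of its RNA, with 6.99, 2.35, 7.75 and 4.38 CPM, and fell by 1.19 ± 0.36 (adjusted p 0.0468), a call that ended with DESeq2 size factors (adjusted p 0.0617) and with DESeq2's Wald test (0.0742).

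Pttg1 encodes securin, the inhibitor that holds separase until anaphase. It had 8.31, 38.9, 6.24 and 21.6 CPM and rose by 2.01 ± 0.24 on the log2 scale (adjusted p 0.00158), the largest rise on the list. Both LPS libraries stood above both unstimulated ones, 4.68-fold in wild-type and 3.45-fold in deficient cells. Securin RNA thus rose where separase RNA fell. Without 1 of the unstimulated libraries the adjusted p of Pttg1 was 0.0600 (wild type left out) or 0.0782 (deficient left out).

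Of the chromosomal passenger partners of Aurora B, Birc5 and Cdca8 fell and Incenp did not pass. Birc5, which encodes survivin, had 6.31, 0.241, 5.25 and 0.160 CPM. It fell by 4.84 ± 0.49 (adjusted p 9.65e-04), the largest fitted fall among the 38 fallen genes with counts in every library. Its LPS values rest on 8 and 6 counts. Cdca8, borealin, had 11.3, 1.21, 8.41 and 1.66 CPM and fell by 2.78 ± 0.39. Incenp, the scaffold of the complex, stood at 48.97, 35.3, 46.8 and 37.9 CPM (log2 -0.39 ± 0.20, adjusted p 0.185), and passed as lower with total-count scaling (log2 -0.80, adjusted p 0.0251). Per length of exon it had the highest level of the 53 in the wild-type unstimulated library, 39.3 TPM (counts per base of exon, scaled to a common sum). With LPS the scaffold RNA was at 21.2 and 23.8 TPM in wild-type and deficient cells, while Birc5 stood at 0.185 and 0.128 TPM and Cdca8 at 0.608 and 0.871 TPM.

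All 7 centromere and kinetochore genes fell. Their summed level was 60.1, 8.41, 49.2 and 8.38 CPM. Cenpa, the histone variant that marks the centromere, had 24.8, 2.80, 17.7 and 0.614 CPM and fell by 3.91 ± 0.46 (adjusted p 0.00158). Nuf2, a subunit of the NDC80 complex that grips microtubules, had 5.92 CPM, 0 counts, 5.61 and 0.320 CPM. It fell at least 65.4-fold against the floor in wild-type cells (interval limit 52.9-fold, or 12.9-fold with counts divided by 4) and 17.5-fold in deficient cells (adjusted p 0.00800). The other subunits of that complex also fell: Ndc80 had 6.22, 0.724, 3.82 and 1.20 CPM, Spc24 had 2.42, 0.332, 1.22 and 0.347 CPM, and Spc25 had 5.64, 1.87, 5.23 and 1.92 CPM. Spc25 had the smallest fitted fall of these 7 genes, by 1.52 ± 0.38. Cenpe, a kinetochore motor, and Cenpf, a large coat protein of the kinetochore, fell by 1.97 ± 0.34 and 3.84 ± 0.70. The deficient LPS value of Cenpf rests on 4 counts, and that of Spc24 on 13. The call of Spc24 ended with DESeq2's Wald test (adjusted p 0.0747) and without the low-count filter (0.0738).

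The 8 kinesin motors all fell, by 2.07 to 4.18 on the log2 scale. In each, every LPS value was under every unstimulated one, but the share of all tested genes so placed is not given. Kif20a, a motor of the central spindle, had 14.6, 3.59, 13.1 and 3.02 CPM and the smallest fall, by 2.07 ± 0.28 (adjusted p 0.00263). It shares 29.3% of its exonic bases with Cdc23 on the opposite strand, which had 21.8, 15.5, 22.3 and 14.9 CPM. Kif4, a motor of chromosome arms, had 4.72, 0.241, 4.61 and 0.267 CPM and fell by 4.18 ± 0.50. It too shares exonic bases, 15.1% of its own, with Pdzd11, whose level was 10.7, 27.2, 14.3 and 31.3 CPM. Kif23, the cytokinesis motor MKLP1, had 15.01, 1.90, 8.08 and 0.694 CPM and fell by 3.24 ± 0.35. Kif11, the motor that pushes spindle poles apart, had 10.5, 1.21, 7.93 and 0.801 CPM and fell by 3.21 ± 0.36. Of the others, Kif2c, a depolymerase of microtubules at the centromere, fell by 3.55, Kif15 fell by 3.17, Kif20b fell by 2.40 and Kif22 fell by 2.81.

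Spindle assembly and the chromosome coat was the group whose calls were split most evenly between rise and fall, with 2 that rose and 2 that fell. Mki67, whose protein Ki-67 coats mitotic chromosomes and is the usual stain for cycling cells, had 65.5, 176, 69.8 and 200.1 CPM. It rose by 1.47 ± 0.18 on the log2 scale (adjusted p 0.00194), 2.69-fold in wild-type and 2.87-fold in deficient cells. Tpx2, which activates Aurora A on the spindle, had 16.6, 42.6, 18.7 and 34.6 CPM and rose by 1.12 ± 0.23 (adjusted p 0.0116, but 0.0880 without the wild-type and 0.0634 without the deficient unstimulated library). Both LPS libraries were above both unstimulated ones for these 2 genes. Aurka itself, by contrast, fell. Hmmr, a spindle pole protein that binds TPX2, had 7.97, 4.403, 9.10 and 2.08 CPM and fell by 1.48 ± 0.42 (adjusted p 0.0367, but 0.0704 without the low-count filter and 0.0687 in a model of LPS alone). Nusap1, which bundles spindle microtubules, had 5.96, 2.11, 7.42 and 0.214 CPM and fell by 3.04 ± 0.88 (adjusted p 0.0401), a call that ended with DESeq2 size factors (adjusted p 0.0564), without the low-count filter (0.0781) and in a model of LPS alone (0.124). Its wild-type pair differed 2.82-fold and its deficient pair 34.7-fold, the latter resting on 8 counts with LPS.

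All 4 cytokinesis genes fell. Anln, anillin, the scaffold of the contractile ring, had 11.4, 0.814, 8.79 and 0.481 CPM and fell by 3.98 ± 0.38 (adjusted p 7.8e-04). Racgap1, the partner of KIF23 in the central spindle, had 12.6, 1.21, 8.08 and 1.31 CPM and fell by 2.998 ± 0.38. Prc1, which crosslinks the microtubules of the midzone, fell less, by 1.20 ± 0.34 (adjusted p 0.0395), with 12.1, 3.98, 7.11 and 4.11 CPM, a call that ended with DESeq2 size factors (adjusted p 0.0541). Ect2, the exchange factor that activates RhoA at the cell equator, had 5.17, 0.452, 4.54 and 2.19 CPM. It fell by 2.18 ± 0.67 with an adjusted p of 0.0495, the highest of the 43, and the call ended with DESeq2 size factors (adjusted p 0.0683). Ect2 was 11.4-fold lower in the wild-type pair and 2.07-fold lower in the deficient pair.

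Of the 6 condensin and topoisomerase genes, which fold and untangle chromosomes, 5 fell and Smc4 did not pass. Top2a, the topoisomerase that untangles sister DNA, had 44.3, 5.49, 34.8 and 2.27 CPM and fell by 3.46 ± 0.31 (adjusted p 5.85e-04). The condensin I subunits Ncaph, Ncapd2 and Ncapg fell by 4.16 ± 0.62, 3.09 ± 0.29 and 3.05 ± 0.44. Ncaph had 8.36, 0.211, 5.07 and 0.534 CPM, and was 39.6-fold lower with LPS in wild-type and 9.50-fold lower in deficient cells. Smc2 and Smc4, the paired ATPases of every condensin, did not go together. Smc2 had 23.8, 9.95, 24.6 and 8.17 CPM and fell by 1.42 ± 0.23 (adjusted p 0.00514). Smc4 had 35.5, 43.2, 52.5 and 30.9 CPM (log2 -0.24 ± 0.29, adjusted p 0.564), higher with LPS in wild-type and lower in deficient cells.

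Levels of different genes were compared per length of exon. The median of the 53 was 6.15 TPM in the wild-type unstimulated library and 0.627 TPM with LPS, and 4.72 and 0.556 TPM in deficient cells. Without LPS the highest levels in wild-type cells were those of Incenp (39.3 TPM), Smc4 (23.7 TPM) and Mki67 (22.6 TPM), none of which passed as lower with TMM scaling. With LPS, Pttg1 (50.7 TPM) and Mki67 (45.6 TPM) led in wild-type cells, ahead of Tpx2 (23.7 TPM), Smc4 (21.6 TPM) and Incenp (21.2 TPM). Top2a, at 17.1 TPM in the wild-type unstimulated library, stood at 1.59 TPM with LPS. Promoter letters did not part these genes cleanly: 32 of 38 fallen genes with a window held a CHR match, as did Mki67 but not Pttg1 or Plk4 among the risers, and Bub1 and Ccnf but not Mad2l1 among those that did not pass. The windows of Pttg1 and Mad2l1 do not cover their GENCODE M21 starts (chr11:43426251 and chr6:66535390). For these genes a match near that start could have been missed.

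**Figure D3:**
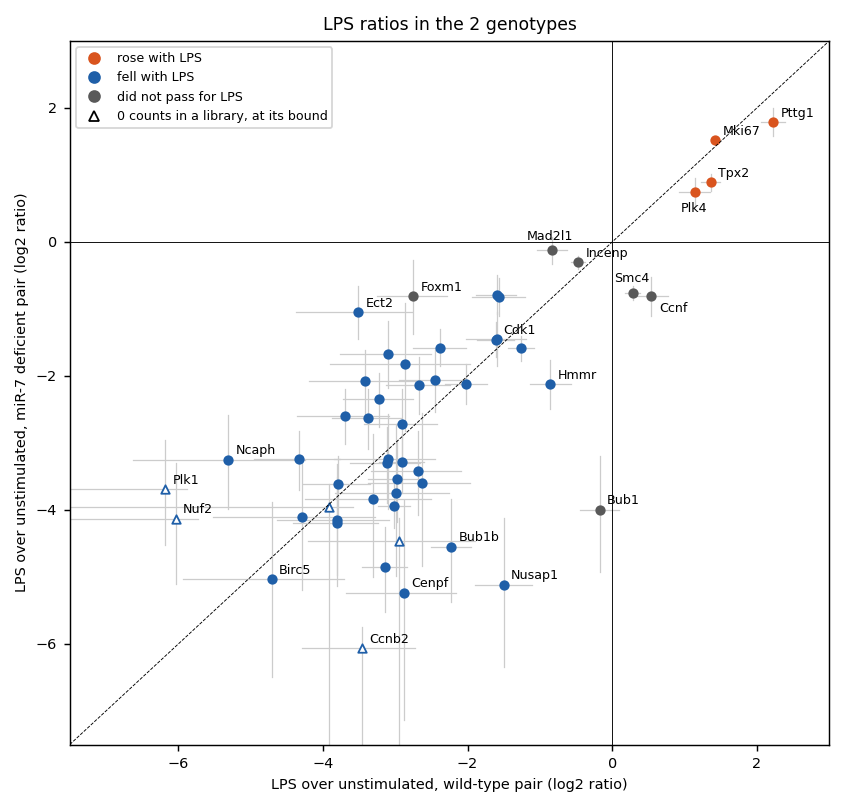
Log2 ratio of LPS over unstimulated in the wild-type pair (x axis) and in the miR-7 deficient pair (y axis) for each of the 53 genes, with 95% counting intervals as grey lines, cut at the plot's edge; triangles are genes with 0 counts in a library, drawn at the bound from 3 counts, and the dashed line marks equal ratios. Most genes lie in the lower left, Mki67, Tpx2, Pttg1 and Plk4 in the upper right, and Bub1, Nusap1 and Ect2 far from the dashed line.

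The second question was whether miR-7 deficiency went with a different level of the mitotic genes. In the edgeR model 0 of 53 were higher and 0 lower at an adjusted p under 0.05, where 0.385% and 0.165% of tested genes were called. At such low shares a list of 53 genes could hold 0 calls without differing from the rest. At an unadjusted p under 0.05 there were 6 of the 53 and 968 of all tested genes, and DESeq2's Wald test called 0 of the 53 and 228 genes in all. The median fitted genotype effect of the 53 was log2 -0.20, against 0.02 over all tested genes, and 39 of the 53 had a fitted effect under 0, against 47.7% of all tested genes. Any difference between the mice or cultures that both conditions share is part of this effect, and cannot be told apart from genotype.

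Without LPS, 39 of 53 genes were lower in the deficient library than in the wild-type one, against 50.03% of tested genes, mostly by small steps with a median log2 ratio of -0.23. Only Foxm1 was beyond 2-fold, and it was lower (1.41% of tested genes lower and 2.82% higher were). It had 380 counts in the wild-type and 81 in the deficient library, a log2 ratio of -1.98 (95% counting interval -2.34 to -1.63). Divided by 4, its counts still gave an interval beyond 2-fold. With LPS the Foxm1 libraries stood at 1.21 and 1.17 CPM.

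With LPS, 8 genes stood beyond 2-fold between the genotypes. Lower in the deficient library were Bub1, Bub1b, Nusap1, Cenpa and Ccnb2 (3.04% of tested genes were), and higher were Ect2, Nuf2 and Plk1 (2.58% were). Bub1 had 193 counts in the wild-type and 13 in the deficient LPS library, 16.8-fold lower (log2 -4.07, interval -5.00 to -3.26). Bub1b had 128 and 16 counts, 9.04-fold lower, and Nusap1 had 70 and 8 counts, 9.88-fold lower. These 3 checkpoint and spindle genes kept an interval beyond 2-fold after division of counts by 4, for which no share of all tested genes is given. Cenpa with 93 and 23 counts, and Ccnb2 with 16 and 0, did not. In the other direction, Ect2 had 15 and 82 counts, 4.84-fold higher, Nuf2 had 0 and 12, at least 3.54-fold higher against the floor (interval limit 2.46-fold), and Plk1 had 0 and 16, at least 4.72-fold higher (interval limit 3.41-fold). None of these 3 kept the 2-fold limit after that division, and the intervals of Nuf2 and Plk1 then included no difference.

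The genotype ratios of the 48 genes with counts everywhere were not alike without and with LPS, with r 0.01 (Pearson) and rho 0.04 (Spearman) over genes of the same libraries. The third question was whether the LPS effect itself differed between genotypes. Beyond 2-fold, by a ratio of ratios with a 95% counting interval, it was more negative in deficient cells for Bub1, Bub1b, Nusap1, Cenpa and Ccnb2 (5 of 53, against 3.82% of tested genes) and more positive for Ect2, Foxm1 and Plk1 (3 of 53, against 2.26%). The log2 difference was -3.77 (-4.60 to -2.93) for Bub1, -3.54 (-4.60 to -2.49) for Nusap1 and -2.29 (-3.05 to -1.53) for Bub1b. It was 2.42 (1.59 to 3.26) for Ect2 and 1.93 (1.22 to 2.63) for Foxm1. With counts divided by 4, Bub1 and Nusap1 stayed beyond 2-fold more negative (2 of 53, against 1.95% of tested genes) and 0 were more positive (against 0.903%). With 1 library a group these differences have no replicate check and describe these libraries. Nusap1 shares 4.24% of its exonic bases with Oip5 on the opposite strand, whose 1.95, 1.84, 2.01 and 0.134 CPM were low in the same library.

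**Figure D4:**
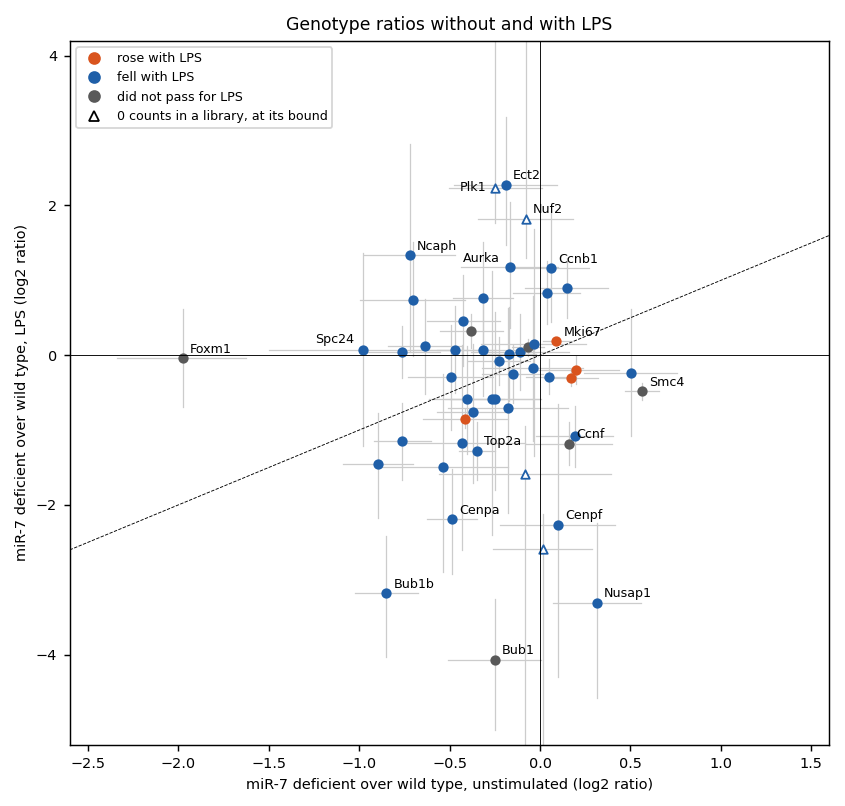
Log2 ratio of miR-7 deficient over wild type without LPS (x axis) and with LPS (y axis), 95% counting intervals as grey lines cut at the plot's edge, colours by the LPS call, triangles for genes with 0 counts in an LPS library at the bound from 3 counts; Cdc25c, with 0 counts in both LPS libraries, is not drawn, and the 2 axes differ in scale. Foxm1 stands apart on the x axis at log2 -1.98, and Bub1, Nusap1 and Bub1b lie lowest on the y axis, at -4.07, -3.31 and -3.18.

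Since miR-7 lowers RNAs that carry a match to its seed, the 3' untranslated regions of the 53 genes were searched for that match. The 2 mature mouse forms listed by RefSeq share the seed, bases 2 to 8, shown in capitals.
mmu-miR-7a-5p: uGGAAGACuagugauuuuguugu
mmu-miR-7b-5p: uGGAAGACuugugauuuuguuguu
The reverse complement of the seed, GTCTTCC, was found in the longest annotated 3' untranslated region of 4 of the 53 genes (7.55%), Sgol1, Cdc25b, Nusap1 and Tpx2, against 14.3% of 11296 tested genes that have such a region. The matches in Nusap1 (chr2:119649849-119649875, plus strand, GRCm38) and Tpx2 (chr2:152895183-152895209, plus strand, GRCm38) are shown because an A follows the seed match in both, the form known to bind best; capitals mark the match.
Nusap1: ccatccacttGTCTTCCacaactgttg
Tpx2: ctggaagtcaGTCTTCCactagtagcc
None of the 4 passed the genotype test (adjusted p 0.905 to 0.995). All 4 had a fitted genotype effect under 0, as had 39 of the 53 and 47.7% of all tested genes. The median of the 4 was log2 -0.54, against -0.20 for the 53 and 0.02 for the tested genes with a match. The single effects were log2 -1.16 ± 0.86 for Nusap1, -0.995 ± 0.98 for Sgol1, -0.09 ± 0.27 for Cdc25b and -0.06 ± 0.22 for Tpx2. Sgol1 had 8 counts in the wild-type and 0 in the deficient LPS library, and a log2 ratio of -0.08 without LPS. Nusap1 had 70 and 8 counts with LPS. The median of the 4 thus rests on few counts in 1 library. Nusap1 had 5.96 CPM in wild-type and 7.42 CPM in deficient cells without LPS, and 2.11 and 0.214 CPM with it. Tpx2 had 16.6 and 18.7 CPM without LPS, and 42.6 and 34.6 CPM with it.

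Of 149 tested genes in 7 lists of other division genes, 50 fell, 15 rose and 84 did not pass the LPS test, where 16.3% of all tested genes fell and 18.0% rose. With libraries scaled to total counts 74 fell and 10 rose, where 3840 of all 12730 tested genes fell and 1550 rose. Fewer were called with 1 library left out, which leaves 1 library in a group. Without the wild-type unstimulated library, falls were no more frequent among the 149 than among all tested genes. The median LPS effect of the 149 was log2 -0.48 in the main model, against -2.998 for the 53, and log2 -0.35 to -0.44 with 1 library left out. Of 31 other centromere and kinetochore genes 12 fell and 2 rose. Kntc1, of the complex that brings dynein to kinetochores, had 11.3, 0.151, 6.86 and 0.294 CPM and fell by 5.28 ± 0.55, while Zwint, which binds that complex, rose by 1.41 ± 0.21, with 41.9, 134, 44.6 and 98.6 CPM. Of 38 other spindle and centrosome genes 16 fell and 2 rose. Kif14, a cytokinesis motor, fell from 213 and 56 counts to 0 in both LPS libraries, while the abundant spindle organiser Numa1 did not pass, with 138, 104, 125 and 84.3 CPM. Among 18 other G2 to M regulators 9 fell and 0 rose, among them the mitotic kinase gene Pbk, by 3.62 ± 0.59, while Ensa, an inhibitor of the phosphatase PP2A, did not pass, with 121, 162, 105 and 130.1 CPM.

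The remaining lists hold complexes that also work outside mitosis. Of 17 genes of the anaphase-promoting complex and its regulators 2 fell, 2 rose and 13 did not pass, with 0 fallen and 0 to 1 risen when any 1 library was left out. Fbxo5, the inhibitor EMI1, fell by 2.05 ± 0.43, and Fzr1, the activator CDH1 that keeps the complex on in G1 and in resting cells, rose by 1.30 ± 0.21, with 14.7, 37.2, 17.9 and 42.8 CPM. Its counterpart in mitosis, Cdc20, fell. Of 16 cohesin genes and loaders 6 fell and 10 did not pass, with 0 to 3 fallen when 1 library was left out. Esco2, which locks cohesin on in S phase, fell from 146 and 111 counts to 0 and 5, while the core subunit gene Stag2 had 94.5, 127, 134.5 and 122 CPM and did not pass. Of 19 MuvB, MYB and E2F regulators 5 fell and 2 rose, with 0 to 3 fallen and 1 to 2 risen when 1 library was left out. E2f2, an activating E2F, had 22.1, 0.784, 14.6 and 4.27 CPM and fell by 3.15 ± 0.72. E2f7, a repressor, fell from 157 and 49 counts to 8 and 0 (adjusted p 0.0103). Tubulins, the material of the spindle and of every other microtubule, went the other way: of 10, 7 rose and 0 fell, where 18.0% of all tested genes rose. With libraries scaled to total counts 5 rose, where 1550 of all 12730 tested genes rose, and fewer than 7 rose without either unstimulated library. Tubb6 had 64.9, 311, 51.6 and 213 CPM and rose by 2.15 ± 0.19, and Tubb4a, a form best known from nerve cells, had 0.769, 10.2, 0.408 and 6.78 CPM and rose by 3.87 ± 0.40. None of the 149 genes passed the genotype test, where 0.385% of all tested genes were called higher and 0.165% lower.

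**Figure D5:**
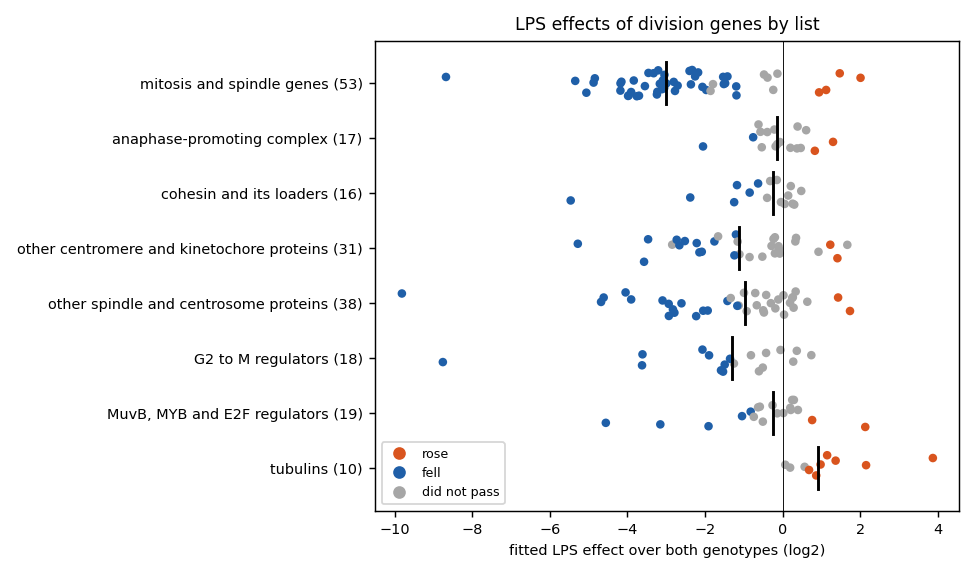
Fitted LPS effect over both genotypes (log2, x axis) of each tested gene in the mitosis and spindle list and in 7 lists of other division genes, coloured by the edgeR call, with a bar at each list's median and the number tested in brackets; for genes with 0 counts in both LPS libraries the fitted value depends on the prior count and is no bound. The medians run from log2 -2.998 for the 53 genes to 0.92 for the tubulins.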

How the data were processed

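The authors deposited raw counts per gene, 1 table for each of the 4 libraries. Per the labels' protocols and the series design text, RNA selected for poly(A) was read on a HiSeq 2000, with Casava 1.8.2, Cutadapt, TopHat 2.0.13 with Bowtie2 and Partek annotation, and the submitters' processing notes name HTSeq and mm8. Strand setting and the handling of reads with several positions are not stated, so reads in exons shared with another gene are uncertain. Of the IDs, 99.7% matched GENCODE M21 (GRCm38), the source of symbols, lengths and coordinates; files and annotation may differ in build.

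Genes with at least 1 CPM in at least 2 libraries were tested by quasi-likelihood in edgeR (version 4.0.16, with limma 3.58.1 in R 4.3.3), with TMM scaling and Benjamini-Hochberg adjustment over all 12730, called under 0.05. CPM is scaled by TMM (factors 1.15, 0.846, 1.16 and 0.890 in the order wild-type unstimulated, wild-type LPS, deficient unstimulated, deficient LPS). The additive model leaves 1 residual degree of freedom (the interaction), so its p-values reflect the likeness of the pairs and not variation among animals. Standard errors are the fitted log2 divided by the square root of F. Ratios of 2 libraries carry exact Clopper-Pearson 95% intervals, and differences of LPS effects normal 95% intervals after adding 0.5 counts; both cover counting error only. Folds against 0 counts use a floor of 3 counts per library. TPM is computed from counts over summed exon length.

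The gene list, the role groups and the other lists were chosen with earlier results of these data known. Genes given in full were, in each role group, those with the highest mean CPM, the lowest and highest fitted LPS effect and the largest difference between LPS effects, with genes called against their group; from each other list up to 4 were taken, 2 by mean CPM and 2 by size of effect. Alternatives were DESeq2 1.42.0 size factors or Wald test, total counts, other filters, models with 1 factor, left-out libraries, other fold limits, no genes with shared exons and, added after the counts were seen, counts divided by 4. Promoter and miR-7 sequences came from RefSeq tables (GRCm38.p6 for promoters), which held 44 of 53 promoters. The 3' untranslated regions came from GENCODE M21 transcripts. No promoter sequence is printed for genes on chromosome 18.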

Additional observations from a re-analysis of the deposited data

Results flagged for a closer look

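For 7 of the 53 genes, the intervals of 2 comparable ratios lay on opposite sides of 0. Over all tested genes this held for 8.37% between the LPS ratios of the 2 genotypes and for 19.4% between the genotype ratios without and with LPS. The LPS ratio was above 0 in the wild-type pair and below 0 in the deficient pair for Ccnf (log2 0.53 and -0.81) and for Smc4 (0.28 and -0.76). The ratio of deficient over wild type changed side between the unstimulated and the LPS pair for Ccna2 (-0.31 and 0.77), Mad2l1 (-0.38 and 0.33), Tpx2 (0.17 and -0.30), Nusap1 (0.31 and -3.31), Smc4 (0.56 and -0.48) and Ncaph (-0.72 and 1.34). With 1 library in each group these differences were not tested, and counting error is the only error in the intervals. With counts divided by 4, the intervals stayed on opposite sides for Ccnf and Smc4 between the LPS ratios (3.45% of all tested genes) and for Smc4 alone between the genotype ratios (8.37%). The LPS values of Nusap1, Ncaph and Ccna2 rest on 7 to 70 counts, while Smc4 had 1159 to 2061 counts in each library. Ccna2 shares exonic bases with Exosc9 and Nusap1 with Oip5, so their reads are less certain than those of Smc4, Mad2l1, Tpx2 and Ncaph, which share none.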

How the results depend on the processing

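The median LPS effect of the genes stayed between log2 -1.99 and -3.41 under the alternatives for which it was fitted and was log2 -2.38 for the genes that share no exons; 0 genes were called for genotype in any genotype fit. The count of 43 lower genes was 35 to 45 with other scalings, no filter, DESeq2's Wald test, LPS alone or counts divided by 4. It was 12 of 19 tested with a minimum of 10 CPM, and 28 without genes that share exons, both with fewer genes tested. With 1 library left out of a model of LPS alone, 15 to 38 were lower and 1 to 3 higher. Total-count scaling moved the median of all genes by log2 -0.41 and the split of all genes from 2297 higher and 2075 lower to 1550 and 3840, and left 1 gene beyond 2-fold higher in the wild-type pair. At a 4-fold limit, 1 gene was higher with LPS in wild-type and 0 in deficient cells, and between genotypes 0 were lower without LPS and 0 higher with it. At a 1.5-fold limit, 4 were lower in the deficient unstimulated and 13 in the deficient LPS library. With counts divided by 4, the LPS libraries gave 0 higher and 3 lower. Shares of all tested genes are not given beside the counts at other fold limits or from these divided counts. Those counts describe the list alone. With 1 library left out, the LPS fit of Ccnf ranged from log2 -0.73 to 0.45 and that of Smc4 from -0.51 to 0.070. Genotype fits ranged from -2.32 to 0.38 for Foxm1 and from -4.67 to 0.38 for Bub1b, both above 0 without the wild-type unstimulated library, where wild type is left with LPS alone. No paired analysis was possible because each group has 1 library; the genotype term links the pairs. At 3 counts or fewer, 0.0713 to 0.0884 CPM by library totals before TMM scaling, a gene could not be told from absent.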
